A study of Danio rerio with 18 samples.

Results

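The genes described here encode the initiation factors (eIF) and elongation factors (eEF) of cytosolic translation, together with the kinases, binding proteins and methyltransferases that carry the same gene names. They were chosen by symbol alone, as every gene of the expression table whose symbol starts with eif and a digit between 1 and 6, or with eef and the digit 1 or 2. The rule found 74 of the 15268 genes in the table. All 74 symbols matched a current RefSeq zebrafish symbol, although eif1b is also listed there as a synonym of eif1. Other factor genes in RefSeq, among them eif5b and the eIF2 kinase genes eif2ak3 and eif2ak4, were not analysed here.

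Expression was measured by RNA-seq in heart tissue of TAB zebrafish, a cross of the AB and Tubingen lines, taken 0, 6 and 9 days post amputation (dpa) of the tip of the ventricle. Each time point had 2 libraries, which the study calls biological replicates, so 6 libraries were analysed. No mutation, transgene or drug was named for any group, and all 3 groups come from the same line. The groups are labelled by days after amputation. The study's methods describe the sampled material as newly regenerated heart tissue, at all 3 times. Below, hearts stands for this tissue. The age of the fish and the number of hearts in a library are not given in the sources used here, and nothing states how the 0 dpa tissue relates in time to the cut. If replicates share animals, the p-values below measure only the spread between these libraries. The histone and cell line libraries of the series were not analysed here.

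Values are FPKM, fragment counts normalised for transcript length and for the number of mapped fragments, so levels can be set side by side between genes. The summed FPKM lay between 803421 and 1330111 per library, and 0 dpa replicate 1 had the highest sum. Working cardiomyocyte markers, with 6 of 8 in the table and none at 0 in any library, summed to 45575 to 90872 FPKM at 0 dpa, 38930 to 46483 at 6 dpa and 49172 to 65821 at 9 dpa, high in every library. Markers of other cell types were also present. Macrophage and neutrophil markers, with 6 of 8 in the table and none at 0, summed to 142 to 514 FPKM at 0 dpa, 251 to 319 at 6 dpa and 142 to 180 at 9 dpa, with all 6 higher in 0 dpa replicate 2 than in replicate 1. Epidermis markers, all 5 in the table but epcam and cyt1 at 0 in some library, summed to 118 to 252 FPKM at 0 dpa, 384 to 597 at 6 dpa and 248 to 420 at 9 dpa. The 7 cell cycle genes summed to 64.3 to 130 FPKM at 0 dpa, 116 to 283 at 6 dpa and 148 to 159 at 9 dpa, and the 4 epicardium markers to 138 to 193, 173 to 255 and 156 to 256 FPKM, with none of either list at 0. Such sums are led by the most abundant markers and can hide the others. In the fit described below, all 6 cardiomyocyte markers were lower at 6 dpa than at 0 dpa (median log2 fold change −0.56). Of the 6 macrophage and neutrophil markers 5 were higher and 1 lower (median 0.50), and all 4 fitted epidermis markers were higher (median 3.13). The part of these lists in the changes of the factor genes was not tested. Whether a gene had fewer cells expressing it or less RNA per cell cannot be told apart in bulk tissue.

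Translation of a capped mRNA starts when eIF4E binds the cap and, with the scaffold eIF4G and the helicase eIF4A, forms the eIF4F complex, which recruits the small ribosomal subunit carrying eIF1, eIF1A, eIF3, eIF5 and the initiator tRNA on eIF2. The 4E-binding proteins, which are switched off by the kinase mTORC1, hold eIF4E away from eIF4G, and kinases that phosphorylate eIF2 block its recycling by eIF2B. In elongation, eEF1A brings aminoacyl-tRNA to the ribosome, eEF1B recharges eEF1A with GTP, and eEF2 moves the ribosome along the mRNA. These steps are known points at which a tissue adjusts how much protein it makes. In zebrafish, the cap-binding protein encoded by eif4e1c, a family member found in aquatic vertebrates, is known to be needed for heart regeneration.

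Of the 74 genes, 71 had a value above 0 in every library. The 2 genes listed at 0 in all 6 libraries were eef1a2 and eif4e1b, and eef1a1b was listed at 0 in 6 dpa replicate 2. A fit with limma on log2(FPKM + 1) covered the 9363 genes whose average FPKM reached 3 in at least 1 time point, and 68 of the 74 factor genes were among them. The other 6 genes were too low to be fitted, namely eef1a1a, eef1a1b, eef1a2, eef2a.2, eef2kmt and eif4e1b. As the filter asks for a level in any one group, the 68 genes are not a random draw of the 74.

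Together the 74 genes made up 2.23 and 2.01% of each library's FPKM at 0 dpa, 2.63 and 2.63% in 6 dpa hearts, and 2.27 and 2.16% in 9 dpa hearts. Their summed FPKM did not rise with this share. It was 29642 and 18381 at 0 dpa, 22138 and 21120 in 6 dpa hearts, and 23953 and 20678 in 9 dpa hearts. All later sums lay between the 0 dpa replicates. The levels spanned a wide range. One gene for eEF1A, eef1a1l1, averaged 8908 FPKM over the 6 libraries and alone carried between 35.9 and 41.7% of the FPKM of all 74 genes in each library. It was followed by eef2b at 1567 FPKM, eef1g at 1560 FPKM, eef1b2 at 1269 FPKM and eif5a at 1102 FPKM. The gap from eef1a1l1 to the next gene was larger than the spread over libraries, whereas eef2b and eef1g did not differ beyond it. The other genes were spread from 861 FPKM (eef1a1l2) to 0, with 25 of them at 100 FPKM or above.

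The question of the first comparison was which factor genes differed between hearts at 6 dpa and hearts at 0 dpa. A gene was called when it met the 3 criteria of the study's methods, an unadjusted P under 0.05, a fold change of 1.5 or more, and a mean level of 3 FPKM or more in either of the groups compared. Of the 68 fitted genes, 7 were called at 6 dpa, 3 higher (eif4a2, eif2ak1 and eif4e2) and 4 lower (eif4a1a, eif4e1c, eif4ebp3l and eif4ea). That is 10.3% of the factor genes, while 15.4% of all 9275 genes tested were called by the same criteria, 7.86% higher and 7.51% lower. At 9 dpa against 0 dpa, 6 of the 67 factor genes tested were called (eif2ak2 averaged under 3 FPKM in both groups), 3 higher (eif4a2, eif4e2 and eif2ak1) and 3 lower (eif4e1c, eif4a1a and eif5a2), or 8.96%, beside 12.5% of all genes, 6.82% higher and 5.72% lower. Between 9 dpa and 6 dpa none of 68 was called, beside 3.41% of all genes. The share of factor genes called was below that of all genes in each comparison, so the counts alone do not set these genes apart.

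With p-values adjusted by Benjamini-Hochberg over all genes of the limma fit, 0 factor genes passed in any comparison, beside 0.712% of all genes at 6 dpa, 0.366% at 9 dpa and 0.0328% between 9 and 6 dpa. The counts at an unadjusted P under 0.05 were 7 genes at 6 dpa, 6 at 9 dpa and 0 between 9 and 6 dpa. The smallest adjusted p of a factor gene was 0.0644 at 6 dpa and 0.0808 at 9 dpa, both for eif4e1c. The calls below are therefore calls by the study's criteria, which do not correct for the number of genes.

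Most factor genes moved little. The median log2 fold change of the 68 genes was −0.13 at 6 dpa and −0.04 at 9 dpa, while that of all genes was −0.00 and −0.02. At 6 dpa 23 genes were above and 45 below their 0 dpa level, and at 9 dpa 30 were above and 38 below. In 57 of the 68 genes at 6 dpa (83.8%) and in 58 at 9 dpa (85.3%), the change stayed within 1.5-fold, beside 73.2 and 77.1% of all genes. These directions rest on single libraries and on the scaling, as leaving out 0 dpa replicate 1 turned the median at 6 dpa to 0.08, leaving out 0 dpa replicate 2 gave −0.37, and scaling every library to the same FPKM sum without haemoglobin genes gave 0.18. The main fit used the deposited FPKM with no scaling to a common sum. This setting, called the equal-sum scaling below, therefore scales by library sum as well as leaving out haemoglobin genes. These steps were not run apart. The equal-sum scaling moved the median of all genes to 0.30 as well, and the factor genes lay 0.13 below all genes under either scale. This gap also rests on single libraries, as leaving out 0 dpa replicate 1 set it to −0.01 (factor genes minus all genes) and leaving out 0 dpa replicate 2 to −0.27.

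**Figure D1:**
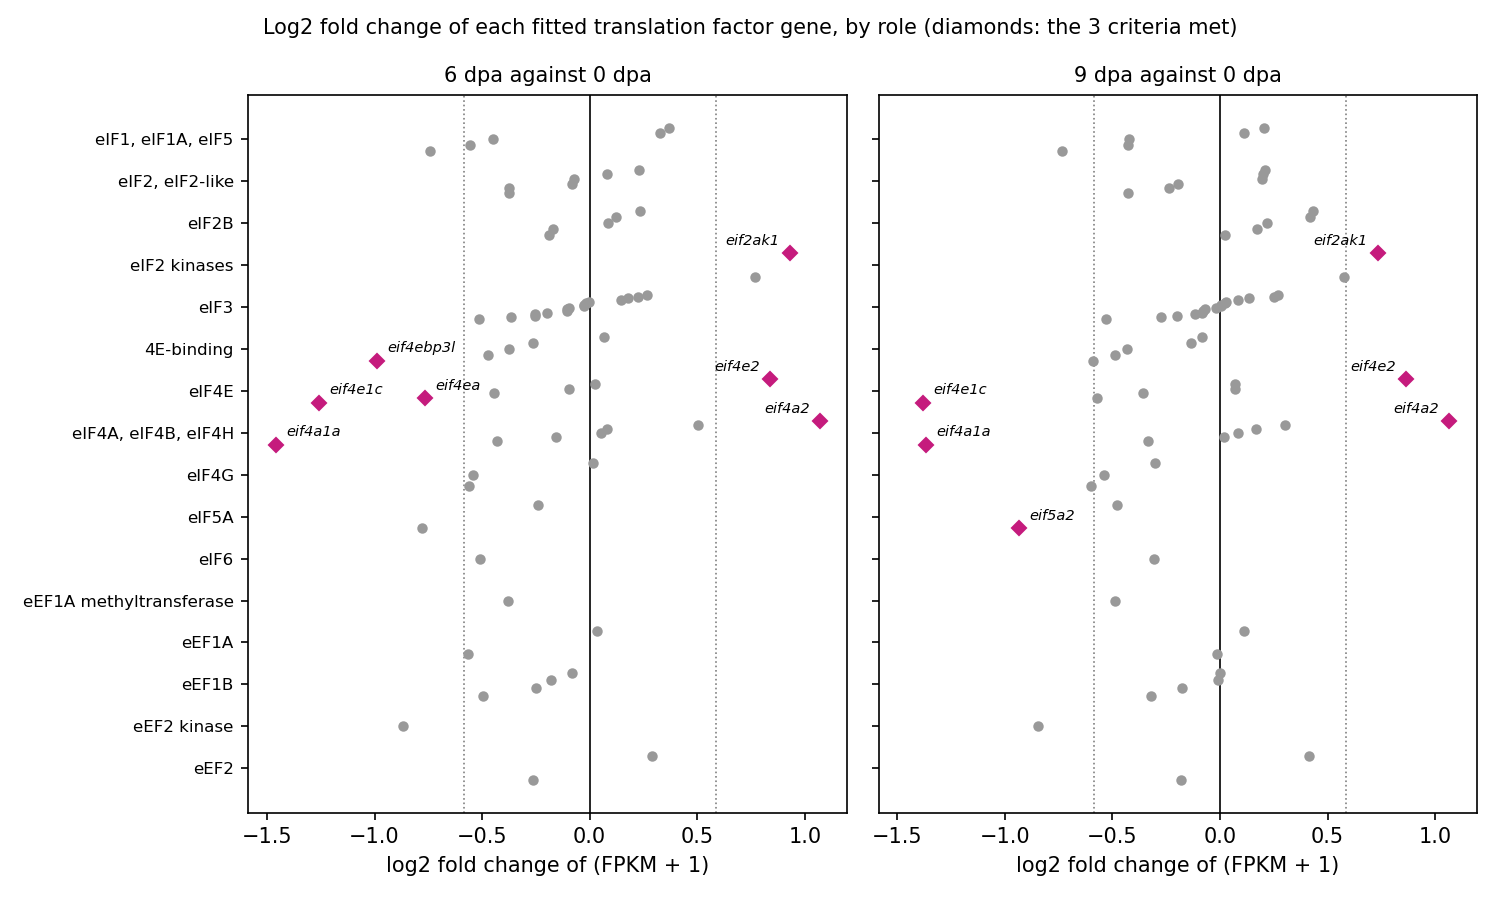
Log2 fold change of (FPKM + 1) of each of the 68 fitted factor genes (x axis), at 6 dpa against 0 dpa (left) and at 9 dpa against 0 dpa (right), with 1 row for each role. Diamonds are genes that met the 3 criteria, circles are the others, and dotted lines mark a fold change of 1.5; called genes lie in the rows of the eIF2 kinases, the 4E-binding proteins, eIF4E, eIF4A and eIF5A, and the 16 eIF3 genes lie between −0.53 and 0.27.

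Among the factor genes, eif4e1c, which encodes a cap-binding protein, had the smallest p-value at 6 and at 9 dpa. The helicase gene eif4a1a came next at both times. The gene eif4e1c had 39.6 and 38.0 FPKM at 0 dpa, 15.6 and 15.7 FPKM at 6 dpa, and 14.0 and 14.6 FPKM at 9 dpa. All 4 libraries after day 0 lay below both 0 dpa libraries, and replicates of a time point differed by less than 2 FPKM. The mean fell to 15.6 ± 0.0722 FPKM at 6 dpa, against 38.8 ± 1.12 FPKM at 0 dpa (SD, n = 2 each), a log2 fold change of −1.26 (SE 0.23, adjusted p = 0.0644). At 9 dpa the log2 fold change from 0 dpa was −1.38 (SE 0.23, adjusted p = 0.0808). Both calls of eif4e1c held under all 15 settings of the analysis, and its adjusted p ranged from 0.047 to 0.260 at 6 dpa and from 0.053 to 0.493 at 9 dpa.

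The cap-binding protein gene eif4ea, an ortholog of the canonical eIF4E, had 18.7 and 17.3 FPKM at 0 dpa, 8.81 and 11.7 FPKM at 6 dpa, and 13.7 and 10.1 FPKM at 9 dpa. Its groups did not overlap with 0 dpa at either time. It was called at 6 dpa (log2 fold change −0.77, SE 0.26, adjusted p = 0.228), but not at 9 dpa (−0.57, adjusted p = 0.437). The call ended under the equal-sum scaling without haemoglobin genes (−0.46), and also without 0 dpa replicate 1 (−0.71) or 6 dpa replicate 1 (−0.58).

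In the opposite direction, eif4e2 rose. Its product, known as 4EHP, binds the cap without eIF4G and represses the bound mRNA. The level was 6.35 and 5.65 FPKM at 0 dpa, 12.7 and 10.5 FPKM at 6 dpa, and 12.7 and 10.9 FPKM at 9 dpa, with no overlap of either later time with 0 dpa. The log2 fold change was 0.84 at 6 dpa (SE 0.24, adjusted p = 0.156) and 0.87 at 9 dpa (SE 0.24, adjusted p = 0.212). The call at 6 dpa ended only without 6 dpa replicate 1 (0.71), and that at 9 dpa only without 9 dpa replicate 1 (0.76), among the 15 settings. The remaining fitted members of the family were not called. Among them, eif4e2rs1, a gene named after eif4e2, averaged 19.5 FPKM over the 6 libraries, beside 9.78 FPKM for eif4e2. Another, eif4e3, was the most abundant of the family in each library of 6 and 9 dpa but below eif4e1c at 0 dpa. It differed by −0.10 (95% interval −0.74 to 0.55) at 6 dpa and by 0.07 (−0.57 to 0.71) at 9 dpa.

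**Figure D2:**
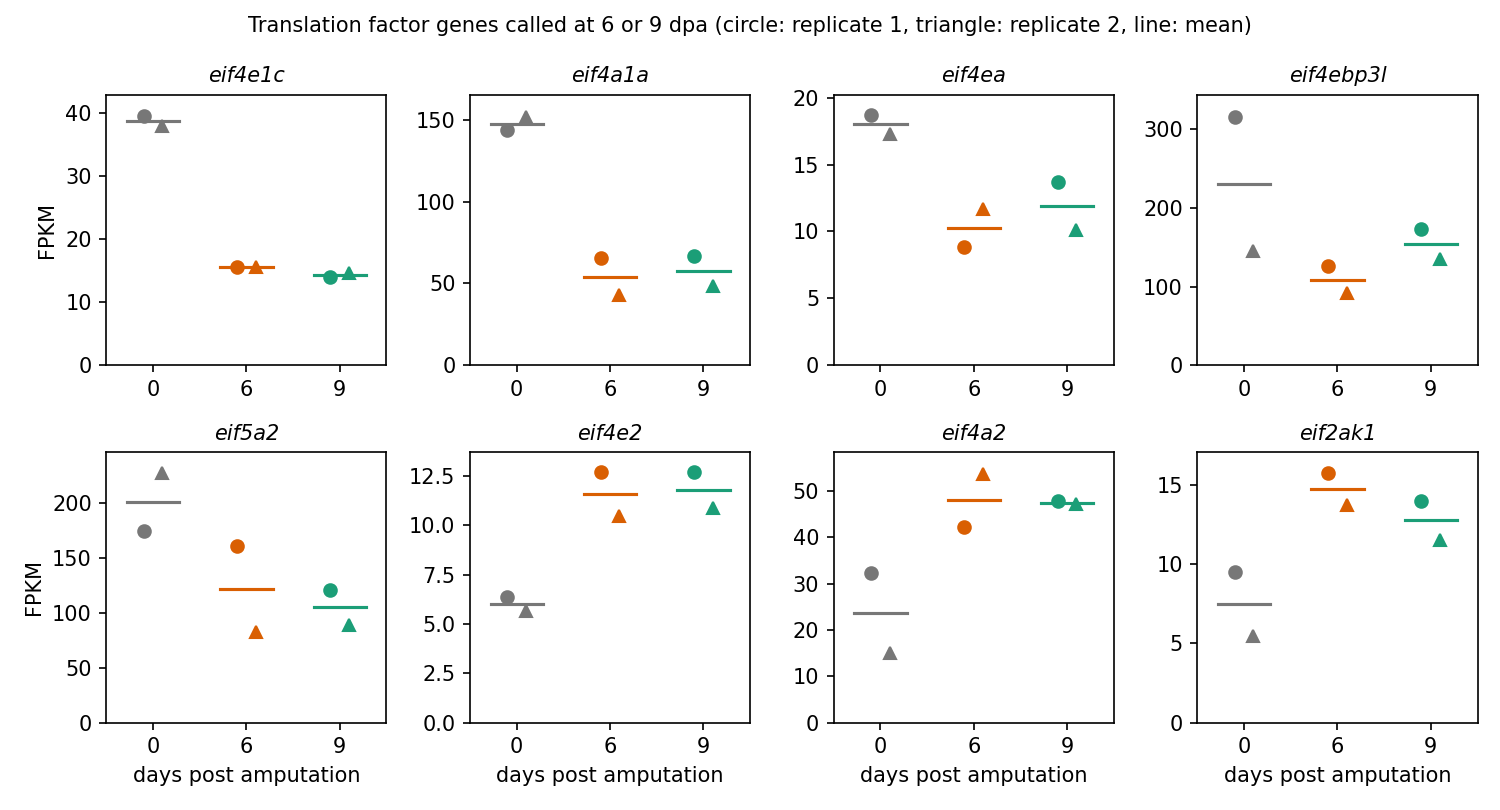
FPKM (y axis, starting at 0) of the 8 factor genes called at 6 or 9 dpa, at 0, 6 and 9 dpa (x axis). Circles are replicate 1, triangles replicate 2 and lines the mean; eif4e1c and eif4a1a at 6 and 9 dpa lie well under their 0 dpa values, while for eif4ebp3l and eif4a2 the 0 dpa replicates lie far apart.

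The composition of the family differed with them. The gene eif4eb and the sums and shares given for eIF4E, the 4E-binding proteins, eIF4A, eIF5A and eEF1A were chosen after the values had been seen and carry no test. Of the summed FPKM of eif4ea, eif4eb and eif4e1c, eif4e1c held 42.9 and 49.8% at 0 dpa, 33.1 and 35.6% in 6 dpa hearts, and 26.3 and 35.2% in 9 dpa hearts. The summed FPKM of these 3 genes was 92.4 and 76.4 at 0 dpa, 47.0 and 44.0 in 6 dpa hearts, and 53.1 and 41.6 in 9 dpa hearts. Each later library was below both 0 dpa libraries on either measure.

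The summed FPKM of the 4E-binding protein genes was well above that of the cap-binding protein genes in every library. These are RNA levels, and the amounts of the proteins were not measured. The gene eif4ebp3l averaged highest over all libraries, but eif4ebp2 was above it in 0 dpa replicate 2 and in both 6 dpa libraries, and eif4ebp1 in 6 dpa replicate 2. It had 316 and 146 FPKM at 0 dpa, 126 and 92.3 FPKM at 6 dpa, and 173 and 136 FPKM at 9 dpa. Its 6 dpa libraries lay below both 0 dpa libraries, but the 0 dpa replicates differed more from each other than replicate 2 differed from either later group. It was called at 6 dpa (log2 fold change −0.99, SE 0.42, adjusted p = 0.315) and not at 9 dpa (−0.49, adjusted p = 0.700). Without 0 dpa replicate 1 the change at 6 dpa was −0.43, and without 0 dpa replicate 2 it was −1.54. Under the equal-sum scaling without haemoglobin genes, which ended the call, it was −0.66. The call held in 7 of 15 settings. In 0 dpa replicate 1 the working cardiomyocyte markers also summed highest, to 90872 FPKM against 45575 in replicate 2. The 5 skeletal muscle markers (9187 against 4143 FPKM, myhz2 at 0 in some library) did so too. The 5 endothelium and endocardium markers (274 against 214 FPKM) were also highest there. These are plain sums, and 0 dpa replicate 1 also had the highest summed FPKM of all genes, 1330111 against 914654 in replicate 2. The part of cell composition or of this total in the level of eif4ebp3l was not tested.

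The other 4E-binding genes were not called. The gene eif4ebp1 had 198 and 98.2 FPKM at 0 dpa, 104 and 111 FPKM at 6 dpa, and 112 and 76.0 FPKM at 9 dpa, so its groups overlapped. Values of eif4ebp2 were 172 and 156 FPKM at 0 dpa, 146 and 94.7 FPKM at 6 dpa, and 148 and 99.1 FPKM at 9 dpa, all later ones below 0 dpa, with log2 fold changes of −0.47 (adjusted p = 0.553) and −0.43 (adjusted p = 0.672). For eif4ebp3 the range over all libraries was 31.1 to 71.1 FPKM, and both extremes were 0 dpa libraries. The gene eif4enif1, whose product carries eIF4E into the nucleus, stayed between 4.39 and 7.07 FPKM. Per library, the summed FPKM of the 4 eif4ebp genes was divided by that of eif4ea, eif4eb and eif4e1c. The ratio was 8.19 and 5.64 at 0 dpa, 8.74 and 7.75 in 6 dpa hearts, and 9.05 and 8.40 in 9 dpa hearts. Both 9 dpa libraries, but not both of 6 dpa, thus exceeded the 0 dpa pair. This separation depends on the genes in the divisor, which leaves out eif4e3. With the sum of the whole cap-binding family as divisor, each 9 dpa ratio falls between those of the 0 dpa replicates.

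The helicase eIF4A, which unwinds the 5′ leader of the mRNA, is encoded by closely related genes, of which 1 fell, 1 rose and the most abundant was not called. The gene eif4a1a had 144 and 152 FPKM at 0 dpa, 65.6 and 42.8 FPKM at 6 dpa, and 66.6 and 48.2 FPKM at 9 dpa. Every later library lay far below both 0 dpa libraries. Its log2 fold change was −1.46 at 6 dpa (SE 0.33, adjusted p = 0.0917) and −1.37 at 9 dpa (SE 0.33, adjusted p = 0.175), and both calls held under all 15 settings. It had the lowest fold change of the 68 factor genes at 6 dpa.

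The most abundant gene for eIF4A, eif4a1b, had 573 and 356 FPKM at 0 dpa, 459 and 358 FPKM at 6 dpa, and 501 and 419 FPKM at 9 dpa. These groups overlapped, and the difference was −0.16 at 6 dpa (95% interval −0.95 to 0.64) and 0.02 at 9 dpa (−0.77 to 0.81). The gene eif4a2, below eif4a1a in all libraries except 6 dpa replicate 2, had 32.4 and 15.1 FPKM at 0 dpa, 42.3 and 53.7 FPKM at 6 dpa, and 47.8 and 47.2 FPKM at 9 dpa. All later libraries were above 0 dpa, and the 0 dpa replicates lay further apart than 0 dpa replicate 1 and 6 dpa replicate 1.

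The gene eif4a2 rose at 6 dpa (log2 fold change 1.07, SE 0.37, adjusted p = 0.243) and at 9 dpa (1.07, SE 0.37, adjusted p = 0.316). Its size depended on 0 dpa replicate 2, the library with the highest macrophage and neutrophil marker sum. That library also had a lower summed FPKM of all genes than 0 dpa replicate 1 (914654 against 1330111), and 61 of the 68 factor genes were lower in it. Without that library the change was 0.54 in both comparisons and was not called, and without 0 dpa replicate 1 it was 1.60 at 6 dpa and 1.59 at 9 dpa. Whether cell composition or the library total has a part in the change of eif4a2 was not tested. The call was also lost without the FPKM filter, without either 6 dpa replicate at 6 dpa (1.24 and 0.90) and without either 9 dpa replicate at 9 dpa (1.06 and 1.08).

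Among the reads assigned to these 3 genes, eif4a1a held 19.2 and 29.0% of the FPKM at 0 dpa, 11.6 and 9.43% in 6 dpa hearts, and 10.8 and 9.38% in 9 dpa hearts. The share of eif4a2 was 4.32 and 2.88% at 0 dpa, 7.46 and 11.82% in 6 dpa hearts, and 7.77 and 9.18% in 9 dpa hearts. Neither share overlapped between 0 dpa and the later times. Close copies such as these can share reads, and how the quantification divided them is not given in the sources used here, so the levels of single copies are less certain than their sum.

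**Figure D3:**
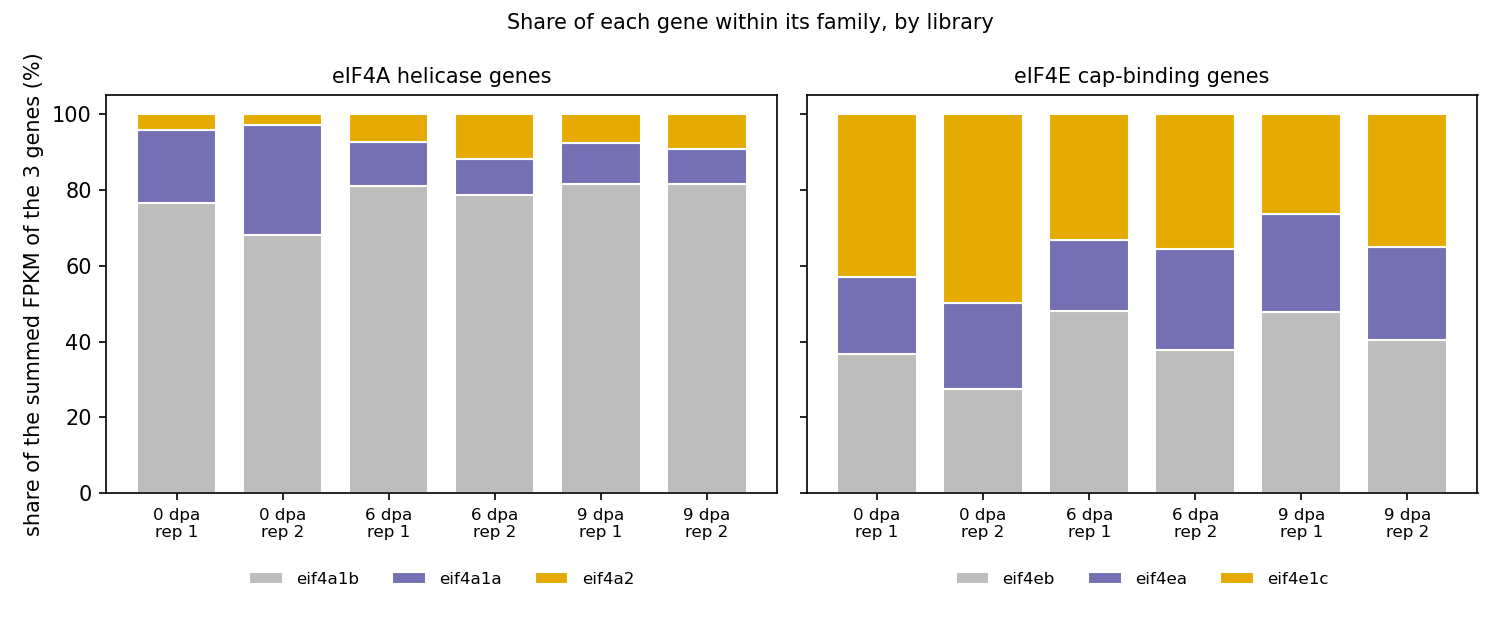
Share of the summed FPKM (y axis, percent) held by each gene in each of the 6 libraries, for the helicase genes eif4a1b, eif4a1a and eif4a2 (left) and the cap-binding genes eif4eb, eif4ea and eif4e1c (right). The eif4a1a segment is 19.2 and 29.0% at 0 dpa and 9.38 to 11.6% in the 4 later libraries, and the eif4e1c segment is 42.9 and 49.8% at 0 dpa and 26.3 to 35.6% later.

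No scaffold gene of the expression table was called. The RefSeq scaffold genes eif4g1b, eif4g3a and eif4g3b were not found in it under these names. The gene eif4g2b, whose product lacks the eIF4E-binding part of eIF4G, was the most abundant, with 91.9 and 67.7 FPKM at 0 dpa, 59.9 and 48.5 FPKM at 6 dpa, and 59.0 and 49.4 FPKM at 9 dpa. Its paralog eif4g2a had 47.4 and 43.0 FPKM at 0 dpa, 35.9 and 25.6 FPKM at 6 dpa, and 30.2 and 28.8 FPKM at 9 dpa. For both genes the later libraries were all below 0 dpa, but the log2 fold changes of eif4g2b (−0.54 at each time, adjusted p = 0.436 and 0.525) and eif4g2a (−0.56 and −0.60, adjusted p = 0.384 and 0.439) did not meet the criteria. The remaining scaffold gene of the table, eif4g1a, had log2 fold changes of 0.01 and −0.30.

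Of the kinases that phosphorylate eIF2, eif2ak1 encodes HRI, which responds to haem and is best known from red blood cell precursors, and eif2ak2 encodes PKR, which binds double-stranded RNA. The gene eif2ak1 had 9.47 and 5.46 FPKM at 0 dpa, 15.7 and 13.7 FPKM at 6 dpa, and 14.0 and 11.5 FPKM at 9 dpa. Both later groups lay above 0 dpa without overlap. The log2 fold change was 0.93 at 6 dpa (SE 0.29, adjusted p = 0.194) and 0.74 at 9 dpa (SE 0.29, adjusted p = 0.367).

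Without 0 dpa replicate 2 the change of eif2ak1 was 0.58 at 6 dpa and 0.39 at 9 dpa, and the calls ended. The call at 6 dpa also ended without 6 dpa replicate 1 (0.84) and held in 13 of 15 settings, and that at 9 dpa in 7 of 15. At 6 dpa the sum of a list of red blood cell markers was higher as well: all 5 were in the table with none at 0, and they summed to 10641 to 14145 FPKM at 0 dpa, 17962 to 21781 at 6 dpa and 11646 to 17105 at 9 dpa. Among them alas2, the first enzyme of erythroid haem synthesis, had 478 and 224 FPKM at 0 dpa, 1432 and 1141 FPKM at 6 dpa, and 1486 and 917 FPKM at 9 dpa. The haemoglobin genes, which include the markers hbaa2 and hbba2, were mixed at 6 dpa. Of the 11 fitted, 5 lay above and 6 below 0 dpa, with a lowest log2 fold change of −15.6. Their share of the FPKM was below that of 0 dpa at 6 dpa and above it at 9 dpa. How far single genes set this share was not tested. The 14 listed haemoglobin genes found in the table together held 10.96 and 10.2% of the FPKM at 0 dpa, 5.33 and 4.46% in 6 dpa hearts, and 12.4 and 13.5% in 9 dpa hearts, and of the 10 haemoglobin genes tested at 6 dpa, 1 was called higher and 4 lower, beside 15.4% of all genes called. The part of red cell RNA in the level of eif2ak1 was not tested. The gene eif2ak2 was low, with 1.35 and 1.86 FPKM at 0 dpa, 4.23 and 2.74 FPKM at 6 dpa, and 2.83 and 2.91 FPKM at 9 dpa, and was not called (0.77 and 0.58, adjusted p = 0.381 and 0.593).

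The kinases act on the alpha subunit of eIF2, the factor that carries the initiator tRNA. Among the 6 genes of eIF2 subunits and eIF2-like factors none was called, and the medians were −0.08 at 6 dpa and −0.00 at 9 dpa. The most abundant, eif2s3, the gamma subunit, had 286 and 229 FPKM at 0 dpa, 270.0 and 272 FPKM at 6 dpa, and 303 and 287 FPKM at 9 dpa. At 6 dpa the changes ran from −0.38 in eif2s2, the beta subunit, to 0.23 in eif2d, and at 9 dpa from −0.43 in eif2a to 0.21 in eif2d, where eif2a and eif2d encode factors that deliver tRNA without eIF2. Of the 5 genes of the exchange factor eIF2B none was called either. Their medians were 0.09 and 0.22, all 5 lay above their 0 dpa mean at 9 dpa, and the changes at 9 dpa ran from 0.02 in eif2b3 to 0.43 in eif2b1. The highest at 6 dpa was eif2b5, at 0.24, the lowest eif2b3, at −0.19, and the most abundant subunit, eif2b2, ranged from 30.6 to 50.8 FPKM.

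Start codon selection is carried out by eIF1, eIF1A and eIF5. Here eif1b was the most abundant gene, with 1166 and 544 FPKM at 0 dpa, 533 and 424 FPKM at 6 dpa, and 595 and 384 FPKM at 9 dpa. The 0 dpa replicates differed by more than the distance from replicate 2 to any later library, and eif1b was not called (−0.74 at each time, adjusted p = 0.457 and 0.550). The highest change of this group was that of eif5, at 0.37 (adjusted p = 0.624) and 0.20 (adjusted p = 0.853). None of its 5 genes was called.

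The 16 genes of eIF3, the large complex that holds the small subunit and the mRNA together, formed the largest group. None was called in any comparison. The medians were −0.06 at 6 dpa and −0.01 at 9 dpa, with 4 and 8 of the 16 genes above 0 dpa. The most abundant subunit gene, eif3f, had 963 and 632 FPKM at 0 dpa, 610.4 and 702 FPKM at 6 dpa, and 654 and 703 FPKM at 9 dpa. Its 95% intervals were −0.99 to 0.48 at 6 dpa and −0.93 to 0.53 at 9 dpa. The lowest change in both comparisons was that of eif3ja, which encodes a loosely bound subunit (−0.51 and −0.53, adjusted p = 0.401 and 0.477), and the highest that of eif3c (0.27 in both, adjusted p = 0.717 and 0.785). In eif3ja the values were 34.5 and 34.3 FPKM at 0 dpa, 27.2 and 20.8 FPKM at 6 dpa, and 25.6 and 21.7 FPKM at 9 dpa, which did not overlap with 0 dpa.

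The protein eIF5A carries the modified amino acid hypusine and helps the ribosome past slow stretches. Its abundant gene, eif5a, had 1656 and 960.4 FPKM at 0 dpa, 1246 and 913 FPKM at 6 dpa, and 1085 and 753 FPKM at 9 dpa, and was not called (−0.24 and −0.48). The second gene, eif5a2, had 175 and 228 FPKM at 0 dpa, 161 and 82.8 FPKM at 6 dpa, and 121 and 89.3 FPKM at 9 dpa. It fell at 9 dpa without overlap (log2 fold change −0.93, SE 0.39, adjusted p = 0.389), and the change of −0.78 at 6 dpa was not called (adjusted p = 0.39). The call held in 10 of 15 settings. It ended without the FPKM filter and under the equal-sum scaling without haemoglobin genes (−0.76). Leaving out 0 dpa replicate 2 (−0.74) or 9 dpa replicate 1 (−1.15) or 2 (−0.71) also ended it. The share of eif5a2 in the FPKM of both genes was 9.55 and 19.2% at 0 dpa, 11.5 and 8.32% in 6 dpa hearts, and 10.1 and 10.6% in 9 dpa hearts, which overlapped. The gene eif6, whose product keeps the large subunit from joining too early, was not called (−0.51 and −0.31, adjusted p = 0.447 and 0.727).

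The elongation factors dominated the levels, and none of their genes was called. The gene eef1a1l1 had 11569 and 6607 FPKM at 0 dpa, 9094 and 8802 FPKM at 6 dpa, and 9269 and 8106 FPKM at 9 dpa. All 4 later values lay between the 0 dpa replicates, and the log2 fold change was 0.03 at 6 dpa (95% interval −0.70 to 0.76) and −0.01 at 9 dpa (−0.74 to 0.72). The second eEF1A gene, eef1a1l2, had 1351 and 581 FPKM at 0 dpa, 475 and 756 FPKM at 6 dpa, and 1303 and 702 FPKM at 9 dpa. Replicates of eef1a1l2 differed widely at each time, and its share of the summed FPKM of eef1a1l1 and eef1a1l2 ran from 4.96 to 12.3% over the libraries. The gene eef1a1a stayed at 1.44 to 4.32 FPKM and eef1a1b at 0 to 1.04 FPKM.

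Genes of the exchange factor eEF1B lay at or below their 0 dpa level, with medians of −0.21 at 6 dpa and −0.09 at 9 dpa over 4 genes and none called. The gamma subunit gene eef1g had 1988 and 1245 FPKM at 0 dpa, 1612 and 1369.7 FPKM at 6 dpa, and 1642 and 1504 FPKM at 9 dpa. The later libraries all lay between the 0 dpa replicates. The lowest change was that of eef1b2, at −0.50 (adjusted p = 0.52) and −0.32 (adjusted p = 0.765). The methyltransferase gene eef1akmt1, whose product modifies eEF1A, ranged from 4.45 to 8.71 FPKM and was not called.

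Of the eEF2 genes, eef2b carried nearly all of the FPKM. It had 1595 and 1079 FPKM at 0 dpa, 1764 and 1462 FPKM at 6 dpa, and 1796 and 1706 FPKM at 9 dpa. Only the 9 dpa libraries lay above both 0 dpa libraries, and neither change was called (0.29 and 0.42, adjusted p = 0.692 and 0.638). The neighbouring copies were far lower, at 3.48 to 5.46 FPKM for eef2a.1 and 0.781 to 2.02 FPKM for eef2a.2. The kinase gene eef2k, whose product inhibits eEF2 by phosphorylation, had 69.3 and 30.5 FPKM at 0 dpa, 26.3 and 23.3 FPKM at 6 dpa, and 27.9 and 22.8 FPKM at 9 dpa.

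Every later value of eef2k lay below both 0 dpa libraries, but the gene missed the criterion on P (−0.87 and −0.84, adjusted p = 0.342 and 0.445). It was called in 3 of 15 settings at 6 dpa and in 4 at 9 dpa. Leaving out 0 dpa replicate 1 gave −0.29 and −0.27, and leaving out 0 dpa replicate 2 gave −1.45 and −1.42. As for eif4ebp3l, the high library was the one with the highest cardiomyocyte, skeletal muscle and endothelium marker sums. It also had the highest summed FPKM of all genes. The part of the marker sums and of this total was not tested. The methyltransferase gene eef2kmt ranged from 1.58 to 2.85 FPKM.

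**Figure D4:**
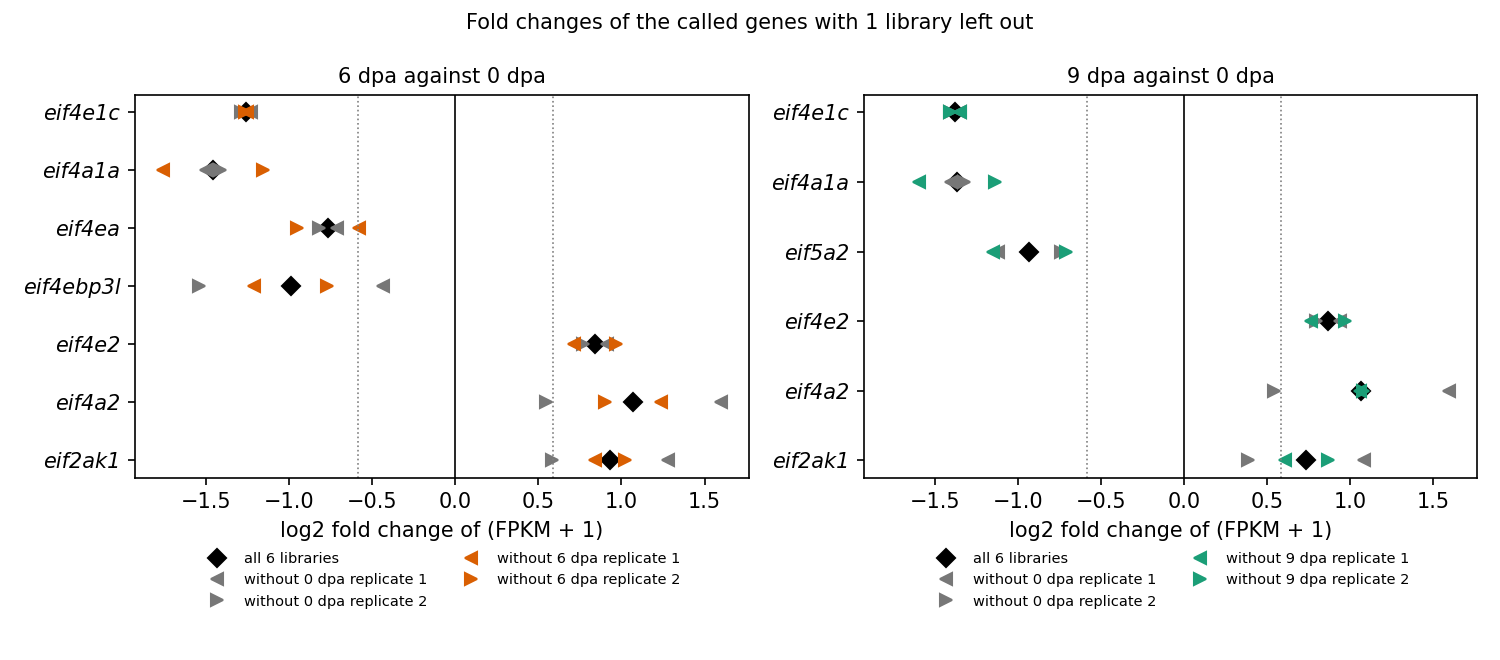
Log2 fold change of (FPKM + 1) of the called factor genes (x axis), at 6 dpa against 0 dpa (left, 7 genes) and at 9 dpa against 0 dpa (right, 6 genes), with all 6 libraries (black diamonds) and with 1 library of the compared groups left out (triangles). Dotted lines mark a fold change of 1.5; eif4e1c and eif4a1a stay beyond it throughout, eif4a2 moves to 0.54 without 0 dpa replicate 2 and eif4ebp3l moves to −0.43 without 0 dpa replicate 1.

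Of the called genes, eif4e1c and eif4a1a kept their calls in both comparisons under all 15 settings, and the others lost theirs in at least 1. The plot of fold changes with 1 library left out shows which libraries carried them. The number of factor genes called at 6 dpa was 14 without 0 dpa replicate 2 (1 higher, 13 lower) and 4 without 6 dpa replicate 1, instead of 7, while the share of all genes called was 24.7 and 10.6%, instead of 15.4%. At 9 dpa it was 11 without 0 dpa replicate 2 (1 higher, 10 lower), 2 without 9 dpa replicate 1 and 3 without 9 dpa replicate 2, instead of 6, while the share of all genes called was 17.1, 8.06 and 6.46%, instead of 12.5%. In these settings the counts of factor genes moved with the share of all genes called. Without 0 dpa replicate 1 they did not. There the share of all genes called rose in both comparisons, while the factor count fell at 6 dpa. At 9 dpa that share was the highest of any library left out, and the factor count stayed below that without 0 dpa replicate 2. The split by direction followed the scaling. With every library scaled to the same FPKM sum without haemoglobin genes, 8 were called higher and 2 lower at 6 dpa. At 9 dpa this scaling gave 4 higher and 3 lower. Median-ratio scaling gave 3 higher and 7 lower at 6 dpa and 3 higher and 5 lower at 9 dpa. All genes called made up 21.9 and 15.2% under the equal-sum scaling, where the median of all genes was 0.30 and 0.13. With median-ratio scaling they made up 17.6 and 13.8%. Under the equal-sum scaling the direction thus moved with the whole table.

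Replicates of the factor genes differed in a common direction. At 0 dpa 61 of the 68 genes were lower in replicate 2 than in replicate 1, with a median difference of −0.37 on the log2 scale, beside −0.24 for all genes. The median difference was −0.16 at 6 dpa and −0.23 at 9 dpa, beside −0.13 and −0.16 for all genes. The shift between the 0 dpa replicates was thus larger than the median change of the factor genes at either later time.

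The libraries can also be compared without a model. At 6 dpa 29 of 68 genes (42.6%) had both libraries beyond both 0 dpa libraries, 8 higher and 21 lower, beside 45.5% of all genes (22.9% higher and 22.6% lower). At 9 dpa 25 genes (36.8%) did so, 9 higher and 16 lower, beside 40.9% of all genes (20.5% higher and 20.4% lower). With 2 libraries against 2, an exact permutation test cannot give a p below 0.333.

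The last comparison set hearts at 9 dpa against hearts at 6 dpa, and no factor gene was called. Here 67 of the 68 genes (98.5%) stayed within 1.5-fold, beside 87.9% of all genes, and the SD of the log2 fold changes was 0.179, beside 0.510 for all genes. The changes ran from −0.35 in eif2a to 0.67 in eef1a1l2, where the 9 dpa replicates lay further apart than the means. Groups did not overlap in 11 genes (16.2%), 8 higher and 3 lower at 9 dpa, beside 36.4% of all genes (18.2% higher and 18.2% lower). Factor genes are more abundant than most genes, with a median of 5.85 log2 units at 9 dpa against 3.67 for all fitted genes, and no comparison with genes of matched level was made.

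Genes that act on or beside these factors were taken from lists chosen with earlier results of these data known. Of 18 fitted genes around mTORC1, S6 kinase and the eIF4E kinases, 4 were called higher and 1 lower at 6 dpa (27.8% of 18 tested, beside 15.4% of all genes), and 5 higher and 0 lower at 9 dpa (29.4% of 17 tested, beside 12.5% of all genes). The median log2 fold changes of the 18 genes were 0.12 and 0.17, and the highest at 9 dpa was 1.34. Not every called gene of this list is named here. Those named include inhibitors of mTORC1 or of eIF4A as well as an activator of mTORC1, so they do not stand for the list. The gene pdcd4a, whose product binds and blocks eIF4A, had 11.84 and 12.27 FPKM at 0 dpa, 41.0 and 27.3 FPKM at 6 dpa, and 32.3 and 21.9 FPKM at 9 dpa, without overlap (log2 fold changes 1.40 and 1.08, adjusted p = 0.0900 and 0.235). The gene tsc1b, part of the complex that restrains mTORC1, rose by 1.07 and 1.00 on the log2 scale, and sesn2, another mTORC1 inhibitor, by 0.82 and 1.02. In contrast rheb, which activates mTORC1, rose by 1.49 at 6 dpa where it had 4.61 and 2.08 FPKM, against 0.496 and 0.468 FPKM at 0 dpa. The stress-induced mTORC1 inhibitor ddit4 had 59.8 and 52.005 FPKM at 0 dpa, 9.39 and 33.9 FPKM at 6 dpa, and 90.5 and 47.3 FPKM at 9 dpa, and was called lower at 6 dpa against 0 dpa (−1.58) and higher at 9 dpa against 6 dpa (1.80), with wide spread between replicates.

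The other lists held fewer calls in number, to be read beside the same 15.4 and 12.5% of all genes. In the mitochondrial list the share called was above these, at 37.5% of 8 tested at 6 dpa and 14.3% of 7 tested at 9 dpa. In the remaining lists it was not, in either comparison with 0 dpa. In termination, recycling and rescue, 1 of 8 genes was called, etf1b, the release factor that reads stop codons, which had 73.4 and 82.8 FPKM at 0 dpa, 46.1 and 40.8 FPKM at 6 dpa, and 47.5 and 41.1 FPKM at 9 dpa, with log2 fold changes of −0.83 and −0.80. Both later groups lay well below 0 dpa. Of the 8 fitted mitochondrial translation factors, tsfm and gfm1, which encode mitochondrial elongation factors, were called lower at 6 dpa (−1.24 and −0.67) and mtrf1, a release factor, higher (0.96). Only tsfm was called at 9 dpa against 0 dpa (−0.86), and gfm1 was called higher at 9 dpa against 6 dpa (0.77). None of 7 genes of poly(A)-binding proteins and none of 7 genes of hypusine and diphthamide synthesis was called in any comparison. Of 11 genes of the eIF2 phosphatase and ATF4 arm, which lies downstream of the eIF2 kinases, 0 were called at 6 or 9 dpa against 0 dpa. There chac1, an ATF4 target, was called higher at 9 dpa against 6 dpa (1.04). Between 9 and 6 dpa, 1 gene was called in this arm (9.09% of 11 tested), 1 in the mitochondrial list (12.5% of 8) and 1 in the mTORC1 list (5.56% of 18). In the other lists none was called between these times, beside 3.41% of all genes. No gene of these 6 lists had an adjusted p under 0.05 in the limma fit, and the smallest was that of tsfm at 6 dpa (0.0855).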

How the data were processed

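RNA-seq libraries of zebrafish heart tissue at 0, 6 and 9 dpa (n = 2 each) were analysed. The authors aligned reads to danRer10 with STAR and deposited FPKM per gene, made with Cufflinks. The submitters' processing notes also name Cuffdiff. Tool versions, the gene annotation and any scaling between libraries are not given in the sources used here. FPKM holds no counts, so the reads behind a value are unknown and its precision rests on the replicates.

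The deposited FPKM were transformed to log2(FPKM + 1), which understates changes of low genes, and fitted with limma 3.58.1 in R 4.3.3 with time point as the only term. All 6 libraries entered 1 fit with empirical Bayes trend, which left 3 residual degrees of freedom. Genes averaging 3 FPKM or more in some time point were kept. The study's criteria (P under 0.05, fold change of 1.5 or more, mean level of 3 FPKM or more) were applied with limma, because the count model of the study's methods needs counts, and P was also adjusted by Benjamini-Hochberg over all genes. The procedure was run on simulated data in which all genes had the same normal spread and libraries had no common shift. That run cannot show how the calls behave under the replicate shifts seen here.

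Genes were named by a rule: in each role the most abundant gene, the extremes of change and every called gene, with small roles and low genes in full. The gene set and the lists were chosen with earlier results of these data known. Alternatives covered the pseudocount, the filter, the scaling, the libraries in the fit, the replicate block and the prior, with each library left out in turn.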

Additional observations from a re-analysis of the deposited data

How the results depend on the processing

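Beside the main analysis, 14 other settings were run, and no factor gene that met the criteria in the main analysis changed sign in any of them. Genes of the other lists were not run under these settings. The calls of eif4e1c and eif4a1a held throughout. With median-ratio scaling the count of factor genes with an adjusted p under 0.05 at 6 dpa was 1 (eif4e1c), and the counts by the 3 criteria were 10 at 6 dpa and 8 at 9 dpa, beside 17.6 and 13.8% of all genes. Scaling to the same FPKM sum without haemoglobin genes gave 10 and 7, beside 21.9 and 15.2% of all genes. It moved the median log2 fold change at 6 dpa to 0.18, with 46 of 69 factor genes above 0 dpa. The median of all genes moved by about the same amount, to 0.30. Leaving out 1 library at a time, the count by the 3 criteria ranged from 4 to 14 at 6 dpa and from 2 to 11 at 9 dpa, while the share of all genes called ranged from 10.6 to 24.7% and from 6.46 to 20.6%, the count with adjusted p from 0 to 1 at 9 dpa, and the median from −0.37 to 0.0789 at 6 dpa and from −0.31 to 0.16 at 9 dpa. The higher counts and lower medians came without 0 dpa replicate 2, and the cause was not tested. A fit with the replicate number as a block called 9 factor genes at 6 dpa and 9 at 9 dpa, each including the main 7 and 6, beside 16.5 and 13.5% of all genes. Deviations of libraries with the same number had correlations of −0.08, 0.09 and 0.01 over 9363 genes and of −0.25, 0.27 and 0.37 over the fitted factor genes. The first is negative in both, and the main fit did not pair samples by number. A correlation cannot show a shift common to all genes, so this check leaves such a shift undecided. Replicate 2 was the lower one at each time, with median differences of −0.24, −0.13 and −0.16 over all genes at 0, 6 and 9 dpa. Of the 68 factor genes, 30 kept their sign at 6 dpa and 33 at 9 dpa under all settings. Fold changes within the replicate spread, and genes under 3 FPKM, were beyond the reach of 2 libraries per group.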
